A study of Mus musculus with 8 samples.

Results

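Apobec1, Apobec2 and Apobec3, 3 cytidine deaminases of the APOBEC family, were followed across the 4 groups of this mouse microarray series. Every probe set annotated with 1 of these 3 symbols was taken, which gave 3 of 18193 genes, with 4 of 45037 probe sets that were not controls: 1451755_a_at for Apobec1, 1417889_at and 1444348_at for Apobec2, and 1417470_at for Apobec3. None of the 4 carried a further symbol, and all 4 passed the filter on low signal that left 27022 probe sets for testing. The groups had 2 arrays each. They were BCR-ABL1 bone marrow cells negative or positive for GFP, and B cells of spleen treated with LPS plus IL4, again negative or positive for GFP. All 8 samples came from carriers of an Aid-GFP reporter, in which GFP marks cells that switch on activation-induced cytidine deaminase (AID). BCR-ABL1 is the fusion kinase of Philadelphia chromosome-positive leukaemia, and LPS with IL4 is a standard stimulus for class switching in culture. The series asked how GFP-positive cells differ from GFP-negative cells in each source. Strain, age, how BCR-ABL1 was introduced, the sorting gates and whether the 2 arrays of a group came from separate animals or cultures were not stated in the sources used here, so p-values measure only the spread between these arrays, which may be technical.

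APOBEC enzymes share a zinc-binding fold that removes the amino group of cytosine in DNA or RNA. Apobec1 edits the messenger RNA of apolipoprotein B in the gut with an RNA-binding cofactor, and it is also found in immune cells. Apobec2 is known from skeletal and heart muscle, and no clear deaminase activity has been assigned to it. Apobec3 restricts retroviruses, is abundant in lymphoid cells and is the only Apobec3 gene of the mouse, where primates have a cluster of several. AID, the relative that drives the reporter, acts on immunoglobulin genes in activated B cells.

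The labelled cell types were checked against marker genes by summing signals over each list. The 4 B cell markers with a probe set summed to 19891 to 21015 in the BCR-ABL1 arrays and to 25181 to 31125 in the spleen arrays. The 5 pre-B cell markers summed to 22417 to 25795 in the BCR-ABL1 arrays and to 977 to 6942 in the spleen arrays. Vpreb1 carried most of that sum in the BCR-ABL1 arrays. Igll1 went the other way, at 598 and 538 in the GFP-negative and GFP-positive BCR-ABL1 groups against 1997 and 847 in spleen, and Il7r was at 4566 in the spleen GFP-negative group. Among the B cell markers Ms4a1, which encodes CD20, fell with GFP in BCR-ABL1 cells from 510 ± 94.1 to 37.7 ± 10.9 (SD, n = 2 each; limma adjusted p = 6.06e-05), and was at 8008 and 7376 in the spleen groups. The spleen GFP-negative arrays stood apart. Their 7 myeloid markers summed to 58235 to 61127, against 686 to 720 in the spleen GFP-positive arrays and 837 to 870 in the BCR-ABL1 arrays, with Csf1r and Itgam at or below the floor of 32 in all groups but that one. Their 7 T and NK cell markers summed to 13724 to 15270, against 336 in each spleen GFP-positive array and 378 to 537 in the BCR-ABL1 arrays. Of the myeloid markers tested, 6 of 6 were lower in spleen cells with GFP, as were 7 of 7 T and NK markers, on each of the 4 array scales used. Over all genes, 31.3% were called lower there after quantile normalization. Csf1r and Cd3g were below the floor in all groups but spleen GFP-negative, and passed the filter only through that group. S100a8, Mpo, Cd3e, Cd3d and Cd4 also had mean signals under the filter value of 51 in every other group. With the spleen arrays left out, 3 myeloid and 2 T and NK markers reached the filter. For genes that passed only through spleen GFP-negative the direction was fixed by the filter. The counts of 6 of 6 and 7 of 7 include them. Trimmed mean intensities of the deposited values were 477 to 497 in the spleen GFP-negative arrays and 589 to 594 in the other 6 arrays. The part of these other cells and of array brightness in the spleen differences of the APOBEC genes was not tested. In such bulk samples, fewer cells of a type and less RNA per cell cannot be told apart.

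The 250 bases before each gene's annotated start are shown as reference, since genes that respond to interferon rose with GFP in BCR-ABL1 cells. Apobec3 differed by 0.091 there and was not called. They were read from RefSeq (GRCm38.p6) at chr6:122602445-122602694 (minus strand) for Apobec1, chr17:48432729-48432978 (minus strand) for Apobec2 and chr15:79892158-79892407 (plus strand) for Apobec3. Capitals mark matches, on either strand, to the core of the interferon-stimulated response element (GAAA, any 2 bases, GAAA), the TATA box TATAAA and the E-box CAGCTG, a site of muscle and B cell regulators. None of the matches overlapped another.
Apobec1: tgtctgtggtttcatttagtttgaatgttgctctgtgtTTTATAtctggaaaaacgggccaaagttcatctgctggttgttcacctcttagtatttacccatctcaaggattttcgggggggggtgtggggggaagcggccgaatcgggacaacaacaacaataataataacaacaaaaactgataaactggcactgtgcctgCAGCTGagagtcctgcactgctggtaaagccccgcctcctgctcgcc
Apobec2: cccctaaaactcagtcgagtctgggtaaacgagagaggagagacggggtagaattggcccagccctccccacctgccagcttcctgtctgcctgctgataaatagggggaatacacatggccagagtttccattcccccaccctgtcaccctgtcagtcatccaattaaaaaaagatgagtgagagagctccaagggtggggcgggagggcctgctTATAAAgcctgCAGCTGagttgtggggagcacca
Apobec3: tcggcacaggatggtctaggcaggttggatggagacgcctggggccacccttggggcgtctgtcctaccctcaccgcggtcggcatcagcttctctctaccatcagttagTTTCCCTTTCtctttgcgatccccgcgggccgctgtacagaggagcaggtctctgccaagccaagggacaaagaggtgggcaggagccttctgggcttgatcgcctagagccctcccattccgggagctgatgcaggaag
The Apobec3 window held 1 match to the interferon element, read as TTTCCCTTTC on this strand and starting 140 bases before the gene's start. The Apobec1 and Apobec2 windows held none, and neither did the window of the other annotated Apobec3 start (chr15:79894773-79895022, plus strand). Of 32851 windows of the same length, 2.98% held this motif. Counted by gene, with a match in any of its windows, 936 of 27025 genes did. Among 11 interferon response genes with a window 5 did (Ifit1, Ifit3, Isg15, Rsad2 and Stat2). TATAAA matched in the Apobec2 window 34 bases before the start, in the Apobec1 window 212 bases before it on the opposite strand, and in the other Apobec3 window 21 bases before it on the opposite strand. That motif was present in 12.4% of windows. CAGCTG matched in the Apobec1 window 47 bases and in the Apobec2 window 23 bases before the start, and in 13% of all windows.

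**Figure D1:**
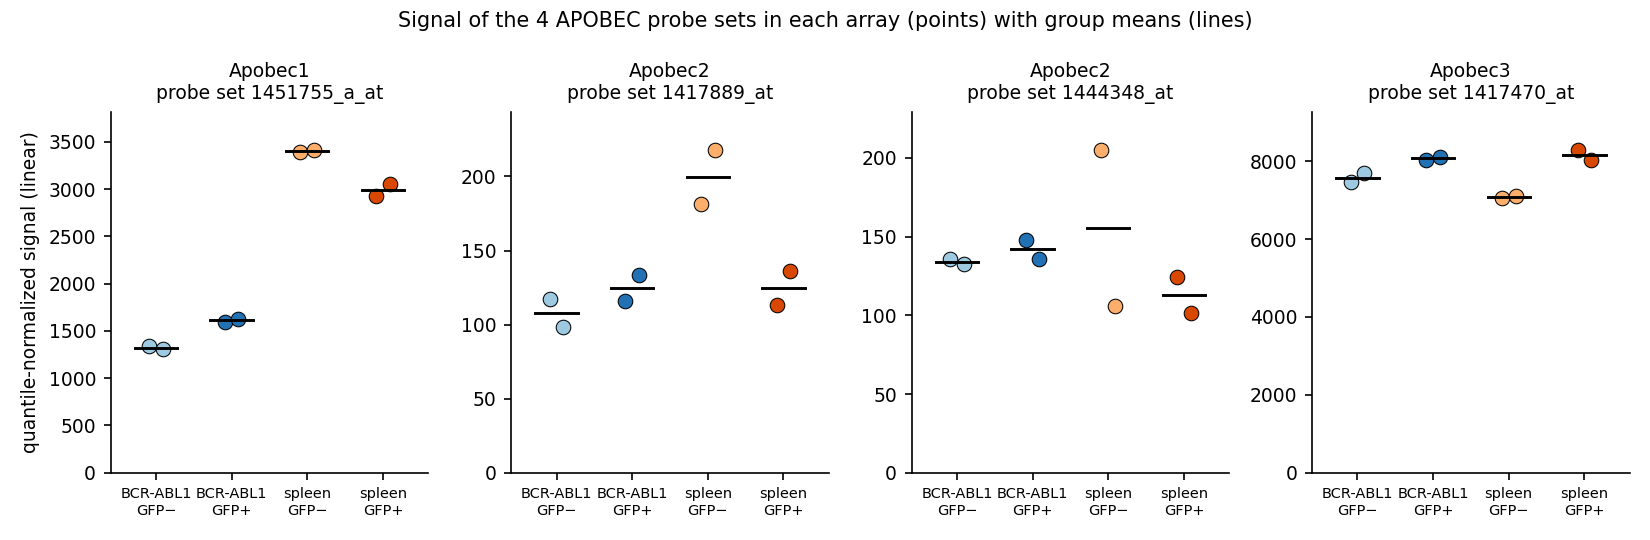
Quantile-normalized signal (linear scale from 0) of the 4 APOBEC probe sets in each of the 8 arrays, with points for arrays and lines for the means of 2. Apobec1 sits at 1308 to 1629.5 in the BCR-ABL1 arrays and at 2923 to 3411 in the spleen arrays, while Apobec3 stays between 7054 and 8283 throughout.

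Apobec1 was the member that differed most between the sources, with lower signals in BCR-ABL1 cells than in stimulated splenic B cells. Its quantile-normalized signals were 1339 and 1308 in the BCR-ABL1 GFP-negative arrays, 1594 and 1629.5 in the BCR-ABL1 GFP-positive arrays, 3391 and 3411 in the spleen GFP-negative arrays, and 2923 and 3055 in the spleen GFP-positive arrays. All 4 BCR-ABL1 arrays lay below all 4 spleen arrays, and no group overlapped another. Among GFP-positive arrays, the group means were 1612 ± 25 in BCR-ABL1 cells and 2989 ± 92.9 in spleen (SD, n = 2 each). The level was 1.85-fold lower in BCR-ABL1 cells, a log2 difference of -0.89 ± 0.055 (SE; limma adjusted p = 6.19e-06). In this comparison 44% of all tested probe sets were called and 21.6% of all tested were called as lower in BCR-ABL1 cells, and in 77.3% the groups did not overlap. Among GFP-negative arrays, the means were 1324 ± 22.2 and 3401 ± 14.1 (SD, n = 2 each). That was a 2.57-fold lower level in BCR-ABL1 cells (log2 difference -1.36 ± 0.055, limma adjusted p = 1.82e-07), where 78.9% of tested probe sets were called, 33.4% of those tested as lower, and 87.6% did not overlap. On 3 other array scales (the values as deposited, and arrays shifted to a common median over all or over the tested probe sets) the 2 log2 differences ran from -0.94 to -0.86 and from -1.64 to -0.99, all called. Of the tested probe sets, 7.02% had a lower value than Apobec1 in the GFP-positive comparison and 15% in the GFP-negative one.

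Within BCR-ABL1 cells, Apobec1 was higher in the GFP-positive arrays, from 1324 ± 22.2 to 1612 ± 25 (SD, n = 2 each). The GFP-positive arrays were both above the GFP-negative arrays. The log2 difference was 0.28 ± 0.055 (SE), a 1.22-fold change with a 95% interval of 1.11 to 1.33-fold. It passed the threshold with a limma adjusted p of 0.0396, in a comparison where 2.8% of tested probe sets were called (1.57% as higher) and 46.4% did not overlap. The size varied little over the alternatives, from 0.26 to 0.30, but the call was lost in 9 of 24 of them. It was lost, among others, without the mean-variance trend (limma adjusted p = 0.126) and with arrays shifted to a common median over tested probe sets (0.0719), and without any 1 of the 4 BCR-ABL1 arrays (0.182 and 0.208 without a GFP-negative array, 0.248 and 0.324 without a GFP-positive one) or of the 2 spleen GFP-positive arrays (0.077 and 0.078). With the spleen arrays left out altogether it held (adjusted p = 0.0197).

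In stimulated splenic B cells the direction of the Apobec1 difference depended on how the arrays were scaled. With quantile normalization the signals fell from 3391 and 3411 in the GFP-negative arrays to 2923 and 3055 in the GFP-positive arrays, with no overlap (log2 difference -0.19 ± 0.055, limma adjusted p = 0.0141; without the first spleen GFP-positive array -0.16, 0.0811). As deposited, the same arrays read 3067 and 2978 against 3059 and 3171, and these overlapped. The log2 difference was then 0.043 (adjusted p = 0.514), while it was 0.20 (0.0142) with a common median over all probe sets and -0.45 (0.000132) with a common median over the tested ones. The median of all tested probe sets moved as well, at 0.17, 0.35, 0.50 and -0.14 on these 4 scales in the order given. Against it, Apobec1 lay in the lower part on each scale, with 36.9% to 39.6% of tested probe sets below it. This contrast called 78.2% of tested probe sets, and in 86.1% the groups did not overlap. Higher probe sets made up 57.4% of the calls with quantile normalization, 65.2% as deposited, and 71.1% and 44.7% with the common medians.

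**Figure D2:**
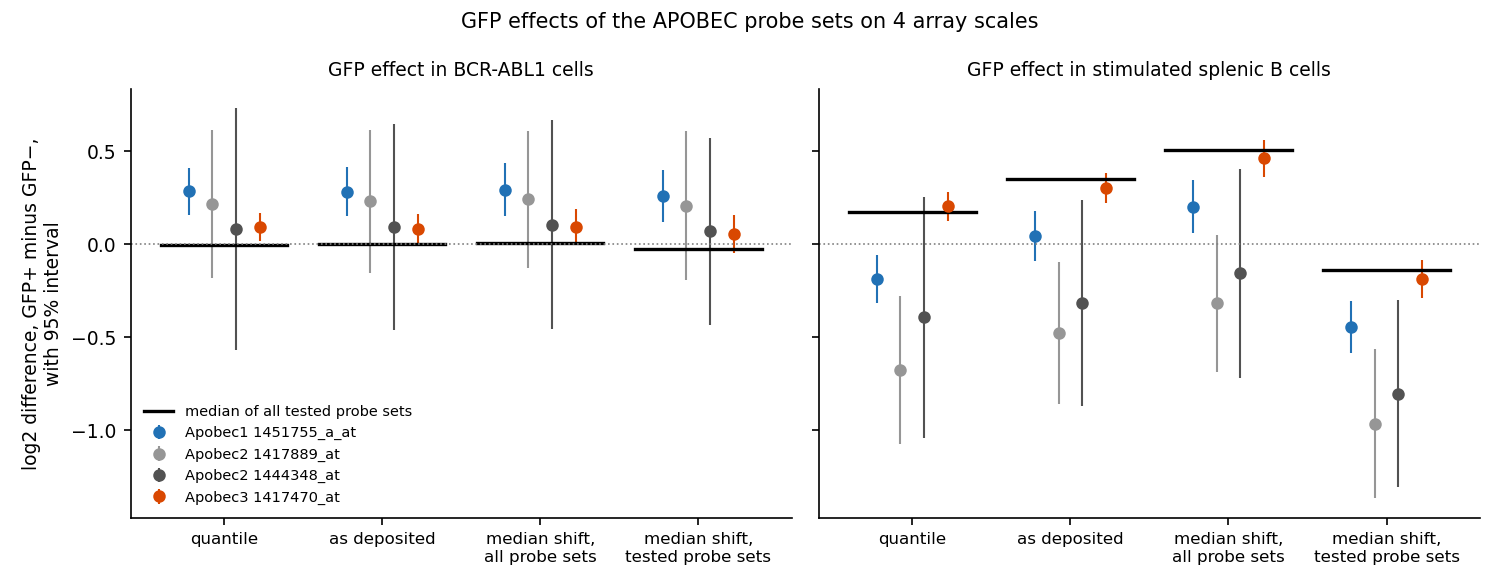
Log2 difference between GFP-positive and GFP-negative arrays (point, with 95% interval) of the 4 probe sets on 4 array scales, in BCR-ABL1 cells (left) and in stimulated splenic B cells (right), with the median of all tested probe sets as a black line. The BCR-ABL1 values hardly move between scales, whereas the spleen values and the median shift together: Apobec1 runs from -0.45 to 0.20 and Apobec3 from -0.19 to 0.46.

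A measure free of any factor applied to a whole array is the ratio of 2 probe sets on that array. The log2 ratio of the deposited Apobec1 and Apobec3 signals was -2.41 and -2.46 in the BCR-ABL1 GFP-negative arrays and -2.26 and -2.21 in the GFP-positive arrays. It was -1.15 and -1.18 in the spleen GFP-negative arrays and -1.48 and -1.37 in the GFP-positive arrays. Only differences of this ratio between arrays can be read, since the 2 probe sets need not bind equally well. Apobec1 was thus higher against Apobec3 in the GFP-positive arrays of BCR-ABL1 cells, by 0.20, and lower against it in those of spleen, by -0.26, with no overlap in either source. For single probe sets, the groups did not overlap in 46.4% of those tested in BCR-ABL1 cells and in 86.1% in spleen. With 2 arrays against 2, an exact two-sided permutation test cannot give a p below 0.333, and no model was fitted to this ratio.

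Apobec2 had low signals throughout, and its 2 probe sets did not give the same picture. With 1417889_at, the signals were 117 and 98.1 in the BCR-ABL1 GFP-negative arrays, 116 and 134 in the BCR-ABL1 GFP-positive arrays, 181 and 218 in the spleen GFP-negative arrays, and 113 and 136 in the spleen GFP-positive arrays. The spleen GFP-negative arrays were above all others, and the other 3 groups overlapped one another. In spleen the mean went from 200 ± 25.6 to 125 ± 16.4 (SD, n = 2 each), a log2 difference of -0.68 ± 0.17 (limma adjusted p = 0.00693). It kept its sign on the other 3 scales (-0.97 to -0.32), but was not called with arrays shifted to a common median over all probe sets (adjusted p = 0.0977), nor without the first spleen GFP-positive array (-0.54, 0.054). Between the sources, the GFP-negative arrays differed by -0.89 ± 0.17 (adjusted p = 0.00157), called on all 4 scales, with the lower level in BCR-ABL1 cells. The GFP-positive arrays of the 2 sources differed by 0.0010 ± 0.17 (adjusted p = 1), with a 95% interval from -0.40 to 0.40. The BCR-ABL1 GFP difference was 0.22 ± 0.17 (adjusted p = 0.827), with an interval from -0.18 to 0.61.

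With the other Apobec2 probe set, 1444348_at, the signals were 136 and 133, 148 and 136, 205 and 106, and 125 and 101 in the same order of groups. The pair of spleen GFP-negative arrays differed most, at 205 and 106, and spanned all other values but 1. No contrast of this probe set was called. Its spleen GFP difference was -0.39 ± 0.28 (limma adjusted p = 0.228), and its difference between the sources was -0.14 ± 0.28 (0.668) among GFP-negative and 0.34 ± 0.28 (0.377) among GFP-positive arrays. The values that use the spleen GFP-negative arrays rested on 1 of them. The GFP-negative source difference was -0.63 (adjusted p = 0.0139) without the second such array and 0.35 without the first, and it was also called for the mean of the 2 probe sets (-0.51, 0.00667). The spleen GFP difference was -0.90 (adjusted p = 0.00368) without the second such array and 0.084 without the first. It was also called with arrays shifted to a common median over tested probe sets, at -0.81 (0.00828). The mean of the 2 probe sets gave -0.54 in spleen (adjusted p = 0.00557).

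Apobec3 was close to level over the whole series after quantile normalization. Its signals were 7463 and 7697 in the BCR-ABL1 GFP-negative arrays, 8026 and 8118 in the BCR-ABL1 GFP-positive arrays, 7054 and 7114 in the spleen GFP-negative arrays, and 8283 and 8032 in the spleen GFP-positive arrays. The spleen GFP-negative arrays were lowest and the BCR-ABL1 GFP-negative arrays next, while the GFP-positive arrays of the 2 sources overlapped. The highest value was 1.17 times the lowest, a log2 range of 0.23. Of all tested probe sets, 1.64% had a smaller range, and of the 881 probe sets within 0.5 log2 units of the Apobec3 mean 13.5% did. On the deposited scale its range was 0.34, and 3.88% had a smaller one. With a common median over all probe sets the means of its 2 spleen groups alone differed by 0.46. The log2 range of Apobec1 was 1.38 and those of the Apobec2 probe sets 1.15 and 1.02.

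The small Apobec3 difference between GFP-positive and GFP-negative arrays passed the test in spleen with a direction that depended on the scale. The spleen means were 7084 ± 42.2 and 8158 ± 177 (SD, n = 2 each), a log2 difference of 0.20 ± 0.033 (limma adjusted p = 0.000558). It was 0.30 as deposited, 0.46 with a common median over all probe sets and -0.19 with a common median over the tested ones, each of them called. On all 4 scales Apobec3 lay near the middle of the tested probe sets, with 48.4% to 51.1% of them below it. In BCR-ABL1 cells the means were 7580 ± 165 and 8072 ± 65.2, with no overlap, and the log2 difference of 0.091 ± 0.033 was not called (limma adjusted p = 0.298, 95% interval 0.015 to 0.17). The GFP-positive arrays of the 2 sources differed by -0.015 ± 0.033 (adjusted p = 0.757, interval -0.091 to 0.061), and by -0.13 (0.0368) with a common median over the tested probe sets. The GFP-negative arrays differed by 0.098 ± 0.033 (adjusted p = 0.0245), which turned to -0.38 with a common median over the tested probe sets. That call was lost without the second BCR-ABL1 GFP-negative array (0.133) and without either spleen GFP-negative array (0.0856 and 0.0565).

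**Figure D3:**
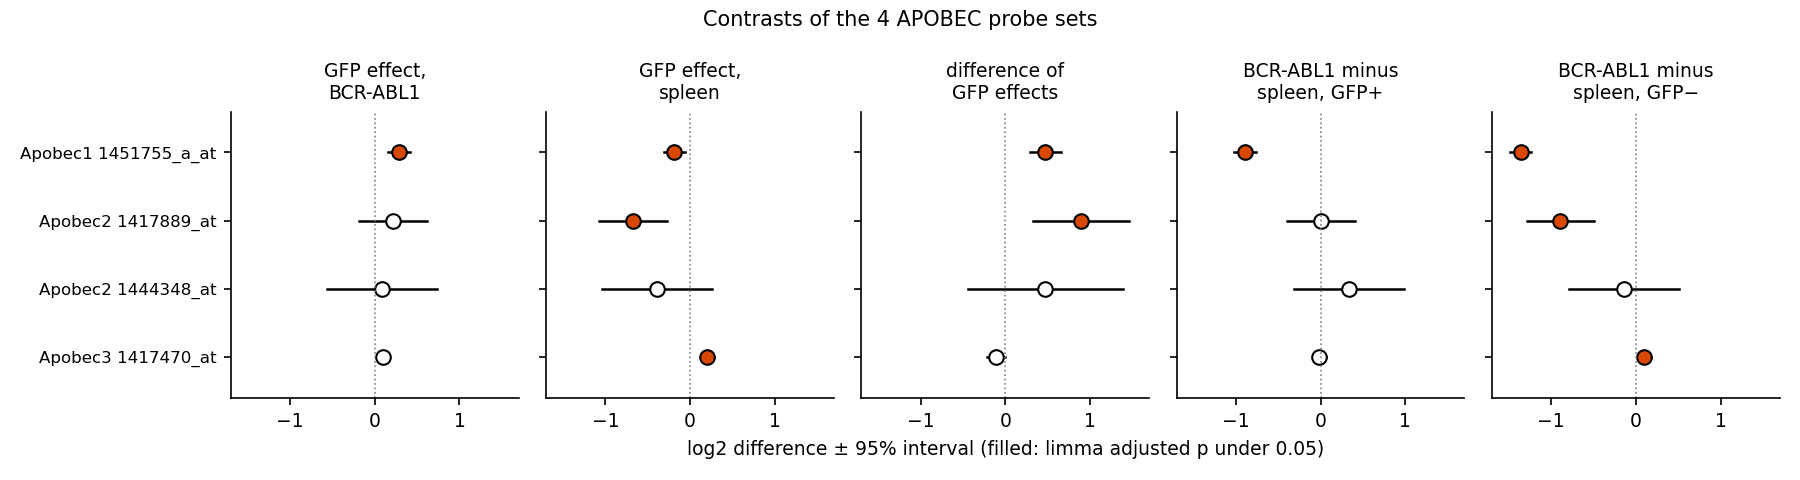
Log2 differences with 95% intervals of the 4 APOBEC probe sets in the 5 contrasts after quantile normalization (filled points: limma adjusted p under 0.05). Apobec1 is called in all 5 contrasts, Apobec2 1417889_at and Apobec3 in part of them, and Apobec2 1444348_at in none.

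The test of the difference between the GFP effects (BCR-ABL1 minus spleen) gave 0.47 ± 0.078 for Apobec1 (limma adjusted p = 0.000877), where 69.8% of tested probe sets were called and the median of all was -0.18. Higher differences made up 42.3% of these calls, against 33.9% as deposited and 28.4% and 54.4% with the common medians. The Apobec1 value was positive on all 4 scales, at 0.24 as deposited (adjusted p = 0.029) and 0.70 with a common median over tested probe sets (9.62e-05), and was not called with a common median over all probe sets (0.092, adjusted p = 0.365). For Apobec2 1417889_at it was 0.89 ± 0.24 (adjusted p = 0.0114), positive on all 4 scales and lost with a common median over all probe sets (0.56, 0.0525) and without the second BCR-ABL1 GFP-positive array (0.78, 0.0522). For Apobec2 1444348_at it was 0.47 ± 0.40 (adjusted p = 0.313), but it was called without the second spleen GFP-negative array (0.98, 0.00806) and with a common median over tested probe sets (0.87, 0.0326), and was -0.0020 at the lowest with 1 array left out. For Apobec3 it was -0.11 ± 0.046 (adjusted p = 0.0593), and its sign and call changed with the scale (-0.37 to 0.24).

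Of 8 genes linked to Apobec1 editing, not all of them cofactors that guide it to its target, 6 were tested. None of the 6 was called in BCR-ABL1 cells (limma; 1 at p under 0.05 before adjustment, median 0.035; 4.08% of 12223 genes were called, 2.31% as higher and 1.78% as lower, with a median of 0). The 2 others, A1cf, the founding cofactor, and Apob, the classical target, did not reach the filter, and A1cf was below the floor of 32 in all 8 arrays. Rbm47, the cofactor that can act without A1cf, had signals of 157 ± 1.54 and 187 ± 10.9 in the BCR-ABL1 GFP-negative and GFP-positive arrays (log2 difference 0.25, adjusted p = 0.505). In spleen, Rbm47 fell from 1065 ± 48.4 to 106 ± 6.10 (SD, n = 2 each; log2 difference -3.32 ± 0.12, adjusted p = 1.38e-07), beside the myeloid and T cell markers given above. Hnrnpab rose there from 3746 ± 335 to 6798 ± 324 (0.86), and Syncrip, an RNA-binding protein of the editing complex, from 3421 ± 396 to 5053 ± 176 (0.57). In all, 3 of the 6 rose and 2 fell in spleen, where 76.9% of genes were called (45.6% higher, 31.3% lower, median 0.18). On the other 3 scales these counts were 4 and 2, 4 and 1, and 2 and 3.

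Among 15 other deaminases, which include enzymes of free bases, nucleosides and nucleotides, of transfer RNA and of double-stranded RNA, 12 were tested. In BCR-ABL1 cells 1 rose and 1 fell, with a median of -0.034, where 4.08% of all genes were called. With the spleen arrays left out 2 rose and 1 fell, as Adar was called higher too. Gda, the guanine deaminase, rose from 44.6 ± 2.03 to 98.8 ± 3.75 (1.15 ± 0.14, limma adjusted p = 0.00443), and Ampd3, an AMP deaminase, fell from 172 ± 3.02 to 61 ± 9.60 (-1.5 ± 0.15, adjusted p = 0.00187). Ada, adenosine deaminase, was at 3584 ± 88 and 3580 ± 148 in these groups. In spleen 7 rose and 3 fell, with a median of 0.81, where 76.9% of all genes were called and the median was 0.18. On the other 3 scales 8 rose and 2 fell, 8 and 2, and 7 and 4, with medians down to 0.60. Ada rose from 72.5 ± 8.19 to 1270 ± 133 (4.13 ± 0.11, adjusted p = 3.65e-08), and the dCMP deaminase Dctd from 36 ± 4.82 to 509 ± 30.8 (3.83). The transfer RNA deaminase genes Adat2 (3.48), Adat3 (2.45) and Adat1 (2.00) rose too, while Gda went from 821 ± 104 to values below 32, the floor, in the GFP-positive pair. Adar, which edits double-stranded RNA, had a spleen difference of -0.34 (adjusted p = 0.014), and Cda, cytidine deaminase, one of 0.77 (0.000709); each changed sign on another scale. Apobec4, Adarb2 and Ampd1 did not reach the filter.

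A list of genes that restrict retroviruses, like Apobec3, or process nucleic acid more broadly, like the RNase H2 subunit genes, had 8 tested genes. In BCR-ABL1 cells none rose and 1 fell with limma: Samhd1, which depletes the nucleotides of reverse transcription, went from 840 ± 19.6 to 676 ± 28.2 (log2 difference -0.32 ± 0.064, limma adjusted p = 0.047), a call lost on the other 3 scales. Over all genes, 4.08% were called there. With the spleen arrays left out Samhd1 stayed called and Trim30a was called higher. Bst2, which tethers virus particles to the cell, was at 849 ± 64.1 and 692 ± 24 (adjusted p = 0.241). Between the sources, Samhd1 and Bst2 differed by larger amounts than Apobec3. Among GFP-positive arrays Samhd1 was at 676 ± 28.2 in BCR-ABL1 cells and 7660 ± 406 in spleen (-3.5, adjusted p = 1.13e-08), and Bst2 at 692 ± 24 and 3305 ± 200 (-2.25, adjusted p = 8.15e-07). There 4 of 8 were lower in BCR-ABL1 cells and none was higher, where 48.8% of genes were called, 24.6% as lower. In spleen 4 rose with GFP and 2 fell (5 and 1, 6 and 1, and 3 and 3 on the other scales), with Rnaseh2b, a subunit of RNase H2, from 1240 ± 132 to 3767 ± 158 (1.61). The others that rose were Rnaseh2a (0.94) and Rnaseh2c (0.38), which encode further subunits of RNase H2, and Bst2 (0.95). Over all genes, 45.6% rose and 31.3% fell in spleen.

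The interferon response, which induces many such restriction genes, moved in BCR-ABL1 cells. Apobec3 was slightly higher there and was not called. Of 13 tested genes of the list 10 rose and none fell, with a median of 0.93, and 10 rose on each of the 4 scales. Over all genes, 2.31% rose and 1.78% fell. The largest change of the list was that of Usp18, a brake on interferon signalling, from 310 ± 0.224 to 894 ± 50.6 (1.53 ± 0.080, limma adjusted p = 9.55e-05). Ifit1 (1.37), Ifit3 (1.33), Oasl1 (1.26), Oasl2 (1.22) and Irf7 (1.00) followed, and with the spleen arrays left out 11 of 13 rose. The change of Apobec3 in the same arrays was 0.091 (95% interval 0.015 to 0.17), and whether it differed from that of the list was not tested. In spleen, where Apobec3 passed the test on all 4 scales with a sign that depended on them, 5 of the 13 rose and 5 fell, with a median of 0.012 (8 and 5 as deposited, 8 and 4 and 5 and 5 with the common medians). The shares over all genes in spleen were 45.6% risen and 31.3% fallen after quantile normalization. Among GFP-positive arrays 11 of the 13 genes were lower in BCR-ABL1 cells than in spleen and 1 was higher, with a median of -1.96 against -0.046 over all genes, where Apobec3 differed by -0.015. In that comparison 24.6% of all genes were called lower and 24.1% higher. The interferon list was known from earlier results to rise in these BCR-ABL1 arrays, so its direction is not independent evidence.

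Muscle genes, listed because Apobec2 is known from muscle, mostly had low signals. Of 10 genes 5 were tested, and none was called for GFP in either source with limma (before adjustment, none at p under 0.05 in BCR-ABL1 cells and 1 in spleen; on the scale of a common median over tested probe sets 4 fell in spleen, and on that over all probe sets 1 rose). Tnnt2, among the 4 that fell, was below the floor in both spleen groups. On that scale arrays were shifted after flooring, so its value (-0.49) was the shift itself. Acta1 and Myh1, a skeletal actin and a skeletal myosin, were below the floor in all groups. Mef2c, a muscle regulator that B cells also use, made up most of the summed signal, at 3329 ± 20.4 and 3127 ± 43.2 in BCR-ABL1 cells and 5791 ± 227 and 5534 ± 8.96 in spleen.

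**Figure D4:**
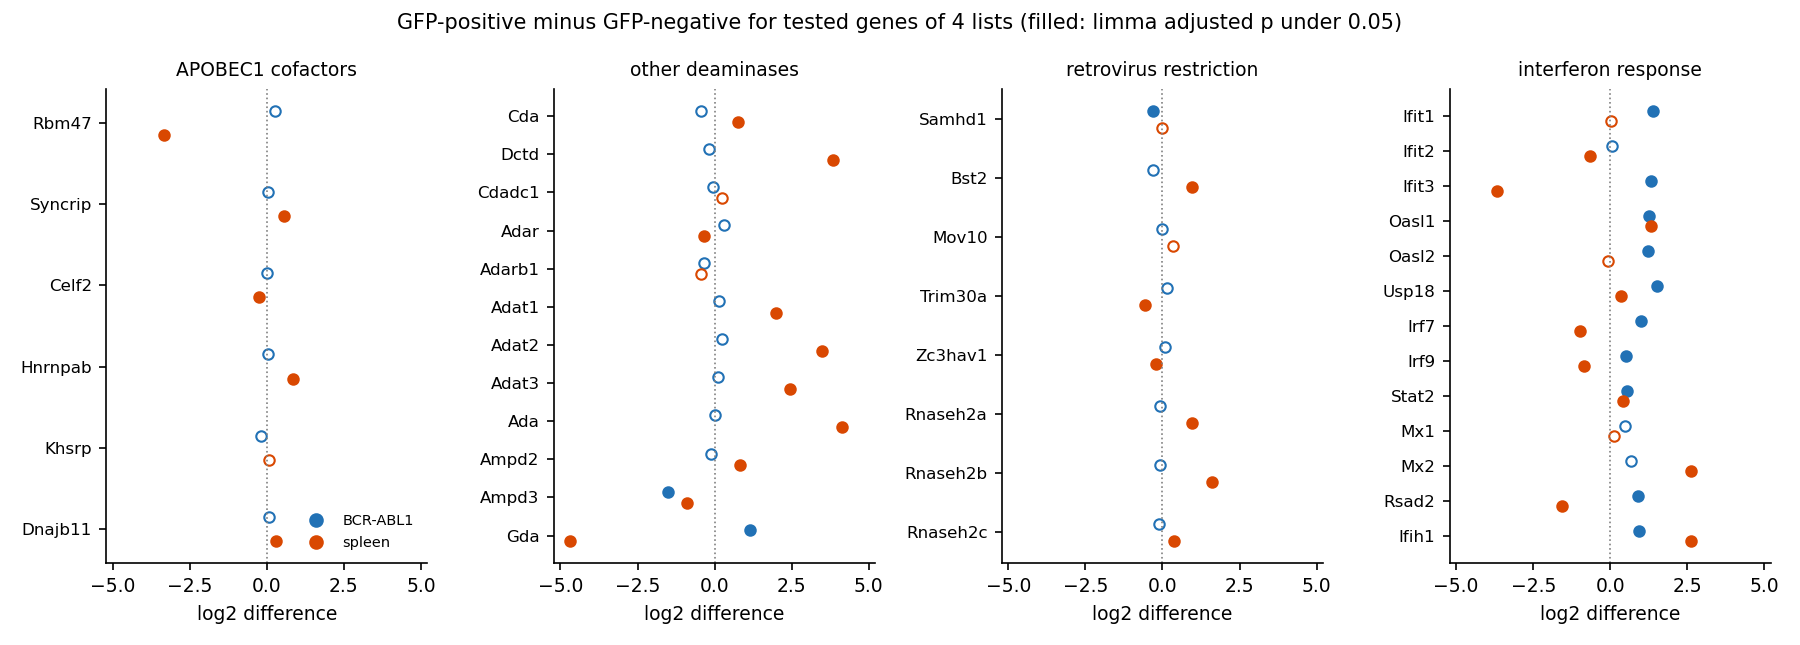
Log2 differences between GFP-positive and GFP-negative arrays for the tested genes of 4 lists, in BCR-ABL1 cells (blue) and stimulated splenic B cells (orange), filled where the limma adjusted p was under 0.05. In BCR-ABL1 cells the filled points lie mostly in the interferon panel, where 10 of 13 rose, while the panel titled APOBEC1 cofactors has none.

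The genes whose profile over the 8 arrays lay closest to each member were ranked by the root mean square difference of centred log2 signals, over 12222 other genes. For Apobec1 they were H2-Oa (0.036), Dnajb2 (0.080), Ighm (0.086), Capg (0.089) and Nfkbia (0.093). H2-Oa, a chain of the class II modulator H2-O of B cells, had signals of 1529 and 1516 in the BCR-ABL1 GFP-negative arrays, 1759 and 1821 in the GFP-positive arrays, 3839 and 3729 in the spleen GFP-negative arrays and 3173 and 3280.2 in the GFP-positive arrays, which is the order of groups seen for Apobec1. For Apobec2 1417889_at the closest were Adamts10 (0.089), Man2b1 (0.091), AU040972 (0.10), D2hgdh (0.11) and Dvl1 (0.11), all highest in the spleen GFP-negative arrays. For Apobec3 they were Trim35 (0.027), Emc3 (0.030), Eif3f (0.032), Tnfaip8 (0.034) and Rac2 (0.036). Trim35 ran from 3378 in a spleen GFP-negative array to 4008 in a spleen GFP-positive array. With 4 groups of 2 arrays, many genes can share such a profile, and the ranking describes these arrays alone.

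**Figure D5:**
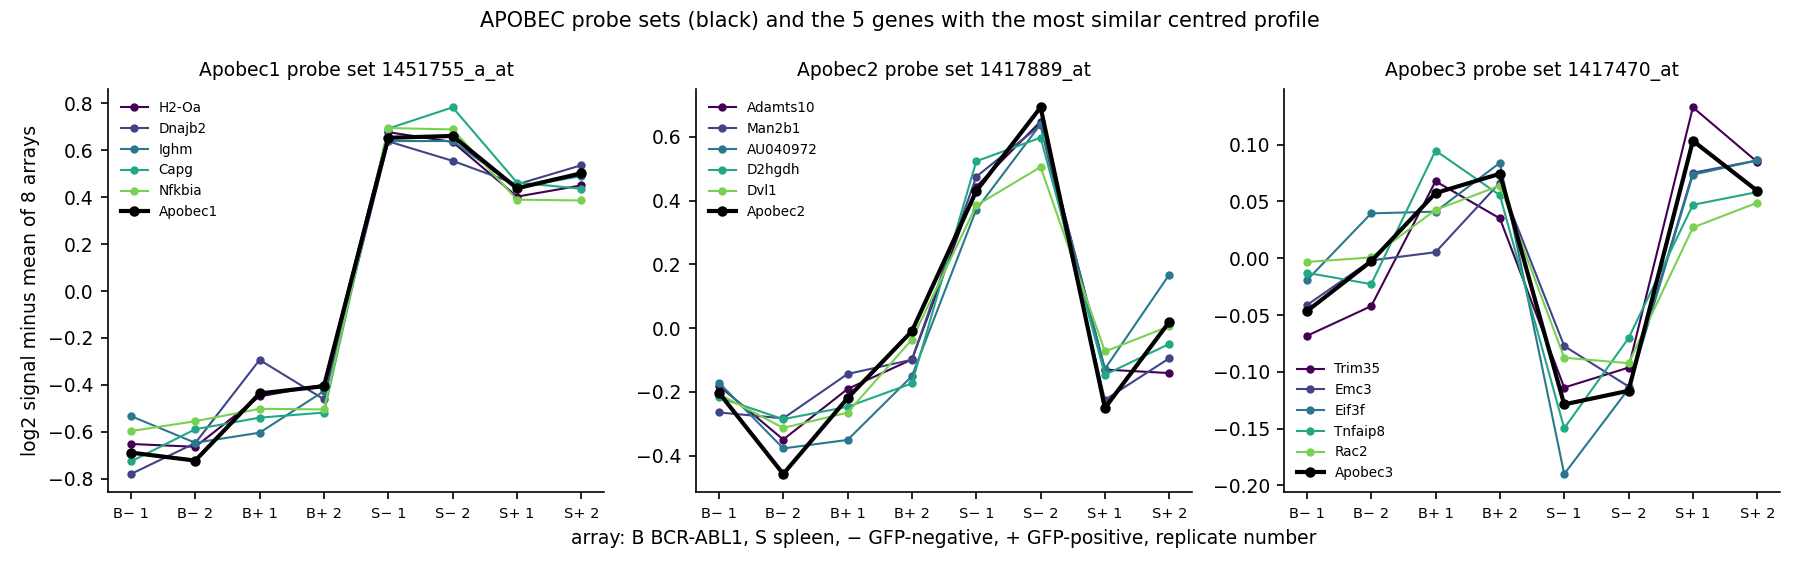
Log2 signal minus the mean of the 8 arrays for each member (black) and the 5 genes with the smallest root mean square difference from it. Apobec1 and its neighbours step up from BCR-ABL1 to spleen arrays, Apobec2 1417889_at peaks in the spleen GFP-negative arrays, and Apobec3 stays within a log2 range of 0.23. The other Apobec2 probe set, 1444348_at, is not drawn.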

How the data were processed

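RNA of 8 mouse samples was labelled with biotin and hybridised to Affymetrix arrays, with the manufacturer's standard labelling, per the labels' protocols. The deposited table holds probe set intensities on a linear scale, with GCOS 1.3 named in the submitters' processing notes. How the authors summarised probes and scaled arrays, and any genome build, were not stated in the sources used here. After 64 control probe sets were left out, 34945 of 45037 probe sets had 1 gene symbol, 932 several and 9160 none. Gene IDs of the 4 APOBEC probe sets all matched RefSeq, with no symbol changed.

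Trimmed means of the arrays (2% trimmed) differed by more than 10%, so intensities were quantile normalized, floored at 32 and log2 transformed. The filter kept probe sets whose mean log2 value reached the 40th percentile (5.67, or a signal of 51), and these 27022 were fitted over all 8 arrays with limma 3.58.1 in R 4.3.3 (lmFit, eBayes with trend, 1 mean per group, 4 residual degrees of freedom), with Benjamini-Hochberg adjustment over the probe sets of each contrast and calls under 0.05. Rose and fell are used of called values. The number of arrays limits precision. Spearman correlations between the 2 arrays of a group were 0.984 to 0.996, and none were identical. Listed genes were read from their brightest probe set with 1 symbol, and up to 8 of the largest called changes of a list, and any not called, could be named. Genes whose symbol stood alone at no probe set (such as Isg15 and Trex1) and the gene that drives the reporter are not reported here. The script was tested on simulated data. The members and lists were chosen with earlier results of these data known. Alternatives were 2 other scales, within-source normalization, a floor of 16 or 64, an offset of 32 in place of the floor, a filter at the 60th percentile or none, eBayes without trend or robust, 1 probe set or the mean of probe sets per gene, array weights, a block for the replicate number, the 4 arrays of a contrast alone, leaving out each array, and a 2-fold threshold. A common median over tested probe sets was added after seeing the data.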

Additional observations from a re-analysis of the deposited data

Results flagged for a closer look

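The GFP effects differed between BCR-ABL1 cells and stimulated splenic B cells for Apobec1, by 0.47 on the log2 scale (BCR-ABL1 minus spleen, limma interaction test, adjusted p = 0.000877), with higher GFP-positive arrays in BCR-ABL1 cells and lower ones in spleen after quantile normalization. It was 0.092, and not called, with a common median over all probe sets. For Apobec2 1417889_at the difference was 0.89 (adjusted p = 0.0114), and it was not called with that common median (0.56, 0.0525) or without the second BCR-ABL1 GFP-positive array (0.78, 0.0522). In this contrast 69.8% of all tested probe sets were called. The difference for Apobec2 1444348_at was not called, though it was in 3 of 20 alternatives, among them a common median over tested probe sets (0.87, 0.0326) and leaving out the second spleen GFP-negative array (0.98, 0.00806). The spleen GFP-negative arrays that enter both values carried high myeloid, T and NK markers, whose part was not tested.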

How the results depend on the processing

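The lower Apobec1 level in BCR-ABL1 cells kept its direction and its call under every alternative, from -0.94 to -0.86 among GFP-positive arrays (23 alternatives) and from -1.64 to -0.99 among GFP-negative arrays (23). The Apobec1 GFP difference in spleen reversed to 0.043 as deposited and to 0.20 with a common median over all probe sets. With a common median over tested probe sets Apobec3 reversed to -0.19 for GFP in spleen, to 0.24 for the difference of the GFP effects and to -0.38 between sources among GFP-negative arrays. These scales moved the median of all tested probe sets in spleen from 0.17 to between -0.14 and 0.50. The Apobec1 call in spleen was also lost with array weights (adjusted p = 0.0694) and without the first spleen GFP-positive array (0.0811). The Apobec3 call between GFP-negative arrays was lost without the trend (0.222), with array weights (0.131), and without the second BCR-ABL1 GFP-negative array (0.133) or either spleen GFP-negative array (0.0856 and 0.0565). Its difference of the GFP effects was called with a floor of 64 or the mean of probe sets (0.0471 each) and without the second spleen GFP-positive array (0.0434). The cause was not tested.

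The counts of called probe sets behind these values were 756 for GFP in BCR-ABL1 cells, and 1961 with array weights, 2159 with those 4 arrays alone, 263 with a 2-fold threshold and 197 to 1091 leaving out 1 array, with 197 to 262 without any 1 BCR-ABL1 array and 502 and 503 without a spleen GFP-positive array. Testing 1 value per gene reduces the number tested: with 1 probe set per gene or the mean of probe sets, and with the 2-fold threshold, the counts were 9426, 9581 and 11646 for GFP in spleen (21129 otherwise), 8439, 8651 and 11623 for the difference of the GFP effects (18864), 6149, 6060 and 3762 between GFP-positive arrays (11900), and 9589, 9812 and 12179 between GFP-negative arrays (21322). Leaving out 1 array gave 19360 to 21340, 16940 to 19759, 8132 to 14472 and 19353 to 21426 in that order. Higher calls between GFP-negative arrays made up 57.6%, against 66.4% as deposited and 70.6% and 44.2% with the common medians.

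The replicate numbers did not show that samples were paired: deviations of same-numbered arrays correlated at 0.11 in BCR-ABL1 cells and 0.27 in spleen, with 2 pairs each. With a block for the replicate number, which leaves 2 residual degrees of freedom, 748 probe sets were called for GFP in BCR-ABL1 cells, 21713 in spleen and 19609 for their difference. The Apobec1 GFP difference in BCR-ABL1 cells was then 0.28 (adjusted p = 0.0543), and the Apobec3 difference of the GFP effects -0.11 (0.0378).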

Other observations

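Klrd1, a receptor of NK cells, was the T and NK cell marker called for GFP in BCR-ABL1 cells, from 178 ± 11.8 to 304 ± 12.1 (SD, n = 2 each; log2 difference 0.78, limma adjusted p = 0.0315), while Cd3g stayed below the floor of 32 in both groups. Of the pre-B cell markers, Rag1 rose from 973 ± 48 to 2748 ± 144 (1.5, adjusted p = 0.00782) and Rag2 from 527 ± 10.1 to 870 ± 29.4 (0.72, adjusted p = 0.0192) in the BCR-ABL1 GFP-positive arrays, where Apobec1 rose as well. The other 3 pre-B cell markers were not called: Il7r (0.36, limma adjusted p = 0.156), Igll1 (-0.16, 0.955) and Vpreb1 (-0.019). Il7r was called higher with the spleen arrays left out. Over all genes, 2.31% were called higher.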
